A study of Mus musculus with 27 samples.

Results

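The genes described here are the protein-coding mouse zinc finger genes named Zfp900 to Zfp999, taken by their symbol in the GENCODE vM21 annotation. The annotation holds 63 such protein-coding genes, and 62 of them are among the 37332 genes of the count table (Zfp953 is not). Counts were made over the gene span, introns included. RNA longer than 200 nt was depleted of ribosomal RNA and sequenced from chromatin, nucleoplasm and cytoplasm of 3 mouse cell types, with 3 biological replicates in each of the 9 groups (27 libraries). mESC is the E14 embryonic stem cell line grown with LIF, which holds the cells in the stem cell state. mNPC is a neural progenitor line established in the submitting laboratory and grown with EGF and FGF, so it stands for 1 line. mCtx is a primary culture of mouse cortical neurons kept for 5 days and may hold other brain cells. No group carried a treatment or an altered gene.

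Most genes of this kind code for proteins with a row of C2H2 zinc fingers, in which a pair of cysteines and a pair of histidines hold a zinc ion and each finger contacts a few bases of DNA. Many also carry a KRAB box, which binds the co-repressor Trim28 (KAP1). Through Trim28 the histone methyltransferase Setdb1 and DNA methyltransferases are brought to the bound DNA, and a large share of these proteins is known for silencing transposable elements in early embryos and stem cells. The family has grown by local duplication, so its members lie in clusters of near copies.

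A search of the coding sequences found a KRAB-A motif near the start of 53 of the 62 proteins. The proteins held a median of 11 fingers, with a range of 0 to 21. The median gene span was 21.7 kb. In 5 groups of at least 3 members, each start lay within 1 Mb of the next, and together these held 43 members. Chromosome 4 held 16 members between 145510759 and 147848366 (mm10). Chromosome 17 held 10 between 21567046 and 22867134, and chromosome 2 held 10 between 175372436 and 178078476. Chromosome 7 held 4 between 42579783 and 43190481, and chromosome 8 held 3 between 69226343 and 69749970.

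Near copies limit what reads can show. Of the 62 members, 32 had more than 90% of their transcript's 100-base stretches to themselves and 13 had less than 50%. How reads shared between copies were counted is not given in the sources used here. The span of 14 members overlapped another counted gene, and for 8 members the counted span was less than 50% of the GENCODE span. The 58 members that passed the filter on low counts were tested. The other 4 (Zfp957, Zfp965, Zfp967 and Zfp968) did not exceed a CPM of 0.273 in any library. CPM here are counts scaled to the effective library size, which is the library total times its TMM factor. That size was 0.736 to 1.35 times the total, above it in mESC and mNPC chromatin and below it in mCtx chromatin. No member was at 0 in all 27 libraries.

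Libraries held from 11249862 to 19871198 counts. Stem cell markers summed to 920 to 4220 CPM in mESC libraries, 3.89 to 8.93 in mNPC and 1.65 to 4.23 in mCtx. Pou5f1, Zfp42, Dppa5a and Dppa4 were at 0 in every mNPC and mCtx library. Progenitor markers summed to 3030 to 5020 CPM in mNPC libraries and 418 to 873 in mCtx. Neuron markers summed to 3720 to 6740 CPM in mCtx libraries and 569 to 2070 in mNPC. Of the other cell types checked, interneuron markers summed to 53.8 to 80.4 CPM in mCtx. Astrocyte markers summed to 19.5 to 37.7 CPM and microglia markers to 13.3 to 37.6 CPM there. The microglia sum was 24.7 to 75.9 CPM in mESC and 12.9 to 25.2 CPM in mNPC, so it was not particular to mCtx. In mNPC, astrocyte markers reached 285 CPM and oligodendrocyte lineage markers ran from 74.0 to 861 CPM, and in mESC fibroblast and vessel markers ran from 34.3 to 401 CPM. Their part in the results was not tested. Markers of the 2-cell-like state, which some stem cells enter briefly, summed to 1.26 to 8.27 CPM in mESC. All 6 of these were at 0 in mNPC and mCtx. In each mESC fraction the library numbered 1 stood further from libraries 2 and 3 (chi-square per degree of freedom 49.3 to 72.0) than those stood from each other (13.3 to 14.9). In mNPC nucleoplasm library 1 also stood apart (55.9 and 37.4, against 20.6 between libraries 2 and 3). Counts of members without the mESC libraries numbered 1 are given where they differ by more than 1.5 times. In bulk samples, fewer cells of a type and less RNA per cell cannot be told apart.

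Summed over all 62 members, RNA was highest in stem cells and in chromatin. In mESC the sum was 2756 ± 149 CPM in chromatin, 1677 ± 38.9 in nucleoplasm and 656 ± 83.2 in cytoplasm (SD, n = 3 in all sums). In mNPC the sums were 1074 ± 50.2, 380 ± 29.9 and 302 ± 21.7 CPM. In mCtx they were 935 ± 71.3, 748 ± 25.3 and 362 ± 31.4 CPM. The mESC libraries lay above all mNPC and mCtx libraries in each fraction, also when counts were scaled to library totals. In mCtx the order of chromatin and nucleoplasm rested on the scaling: with library totals the sums were 692 to 734 CPM in chromatin and 671 to 698 CPM in nucleoplasm, which overlap. The chromosome 4 group alone made up 1447 ± 128 of the 2756 CPM in mESC chromatin, and 60.2 ± 6.11 of the 1074 CPM in mNPC chromatin.

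**Figure D1:**
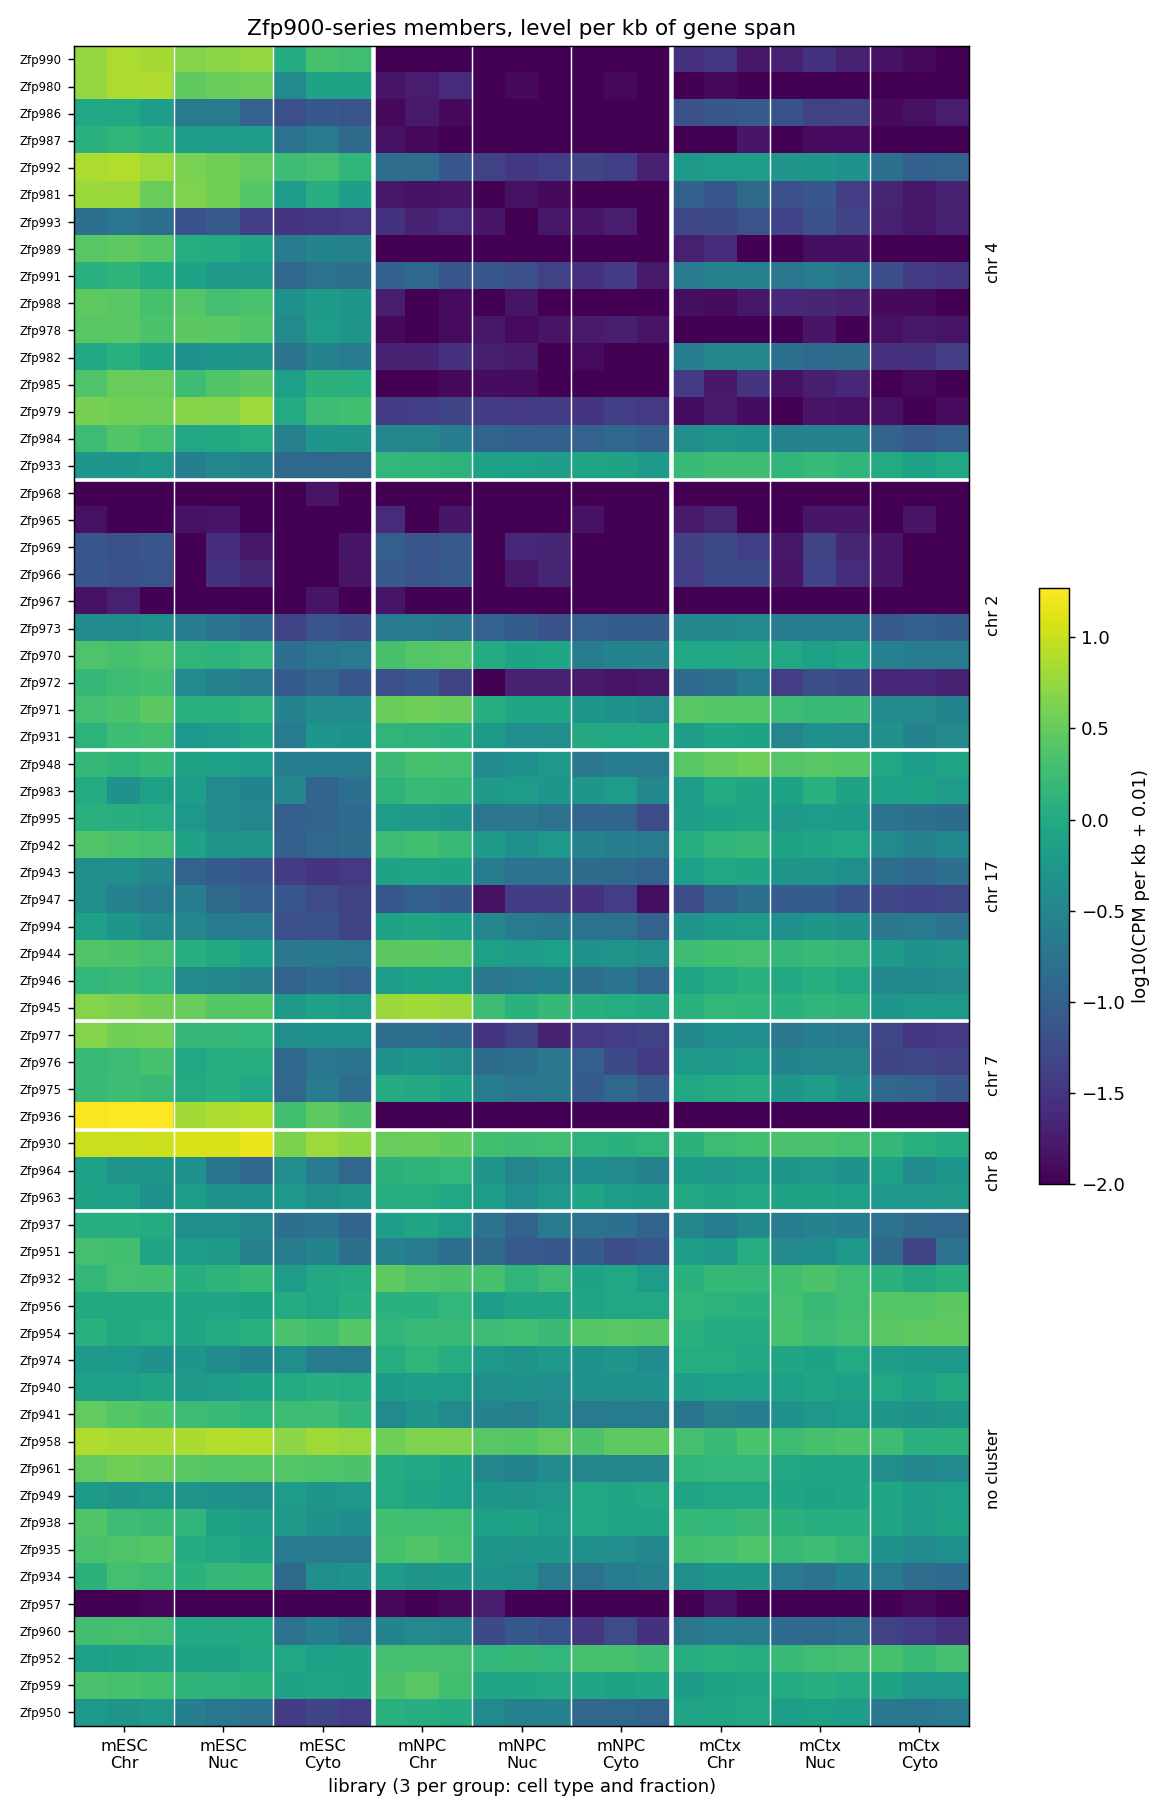
Level of each of the 62 members (rows, grouped by chromosome) in each of the 27 libraries (columns, 3 per cell type and fraction), on a log10 colour scale of CPM per kb of gene span plus 0.01. The chromosome 4 rows other than Zfp933 are brighter in the mESC columns than in the mNPC columns, and Zfp936 of chromosome 7 is dark in all 18 mNPC and mCtx columns.

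Per kilobase of counted span, the 6 members with the highest mean over the 27 libraries were Zfp930 (4.40 CPM per kb), Zfp958 (3.95), Zfp936 (3.10), Zfp945 (2.17), Zfp954 (1.78) and Zfp992 (1.53). For Zfp930, Zfp958 and Zfp936 the counted span was 12.3%, 20.8% and 4.3% of the GENCODE span, so these levels rest on a short stretch. Zfp930, the highest, was at 26.6, 26.9 and 27.9 CPM in mESC chromatin. In mNPC chromatin it was at 8.54, 8.87 and 7.80 CPM and in mCtx chromatin at 3.33, 4.55 and 5.07 CPM. The 3 groups did not overlap, and the differences from mESC were -1.69 and -2.65 on the log2 scale. Zfp945 had another order, with 121, 133 and 123 CPM in mNPC chromatin, 93.2, 86.4 and 75.7 in mESC and 24.6, 29.5 and 29.0 in mCtx.

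The comparison of mNPC and mCtx with mESC asks which members are restricted to stem cells. A fit across all 18249 tested genes with edgeR's quasi-likelihood test was used, with Benjamini-Hochberg adjusted p under 0.05 as the threshold. In mNPC chromatin 17 members were higher and 32 lower than in mESC, against 33.8% and 42.7% of all genes tested. The median change of the members was -0.87 on the log2 scale and that of all genes -0.18. In nucleoplasm 5 members were higher and 40 lower (35.7% and 41.5% of all genes), with medians of -1.23 and -0.14. In cytoplasm 18 were higher and 28 lower (36.5% and 39.4%), with medians of -0.93 and -0.07. Without the mESC libraries numbered 1, the count higher in nucleoplasm was 8. Over all 58 members, the lower share was above the background in each fraction. In chromatin and cytoplasm this rested on the chromosome 4 group. The 42 tested members outside it gave 16 higher and 17 lower in chromatin (40.5% lower, median -0.09) and 17 and 13 in cytoplasm (31% lower, median 0.0009). In nucleoplasm they gave 4 higher and 25 lower (59.5% lower, median -0.63). The 31 tested members with more than 90% of their stretches to themselves gave 14 higher and 13 lower in chromatin. They gave 5 and 18 in nucleoplasm, and in cytoplasm 12 each way.

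In mCtx chromatin 8 members were higher and 36 lower than in mESC, against 33% and 47.4% of all genes, with medians of -1.27 and -0.38. In nucleoplasm 21 were higher and 30 lower (38.8% and 43.4%), with medians of -0.67 and -0.15. In cytoplasm 19 were higher and 28 lower (40.1% and 41.6%), with medians of -0.34 and -0.05. Outside the chromosome 4 group, 7 members were higher and 21 lower in chromatin (median -0.64). Nucleoplasm gave 20 and 16 (median 0.44), while 18 and 13 were called in cytoplasm (median 0.16). The sign of the members' median thus turned in nucleoplasm and cytoplasm without that group. It turned as well over the 31 members with mostly unshared stretches, with medians of 0.53 and 0.40. These comparisons share the mESC libraries with those of mNPC. Scaling to total counts lowered the median of all genes in mCtx chromatin to -1.17 and left 1 member higher and 49 lower. The members' median then lay 0.89 below that of all genes, as it did in the fit above.

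The 2 ways of measuring differed for members that were higher outside mESC. Transcript levels in TPM from the authors' table, tested with limma on log2(TPM + 1), gave 0 members higher and 49 lower in mNPC than mESC chromatin. On that scale the median of all genes was -0.51 and that of the members -1.53. TPM relates to annotated transcripts while the counts cover whole gene spans. Calls of higher levels in mNPC below are therefore calls on gene-span counts.

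Lower than mESC in both mNPC and mCtx in all 3 fractions were 24 of the 58 members, against 20.5% of all genes tested. Of these, 14 lie on chromosome 4. The other 10 are Zfp936, Zfp975, Zfp976 and Zfp977 of chromosome 7, Zfp930 of chromosome 8, Zfp972 of chromosome 2, and Zfp941, Zfp958, Zfp960 and Zfp961, which are in no group. These 10 are out of 42 tested members outside the chromosome 4 group, a share near that of all genes. Over the alternative settings tried, the count of 24 ran from 23 to 26. Higher than mESC in both cell types and all fractions were 4 members (Zfp933, Zfp943, Zfp950 and Zfp952), against 14.3% of all genes. That count fell to 1 with total-count scaling and to 0 in each fit on TPM.

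The chromosome 4 group showed the widest range between cell types. Its 15 members other than Zfp933 summed to 1381, 1580 and 1339 CPM in mESC chromatin. In mNPC chromatin the same sum was 26.9, 27.9 and 20.7 CPM, and in mCtx chromatin it was 58.8, 66.9 and 70.0 CPM. The 3 cell types did not overlap, and mNPC was the lowest. In cytoplasm the sums were 210, 354 and 308 CPM in mESC, 8.30, 10.1 and 6.62 in mNPC, while mCtx held 12.9, 8.90 and 10.0. In each fraction all 15 were lower in mNPC than in mESC. In mCtx all 15 were lower in chromatin and cytoplasm and 14 in nucleoplasm, where Zfp993 did not pass (log2 change -0.35).

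**Figure D2:**
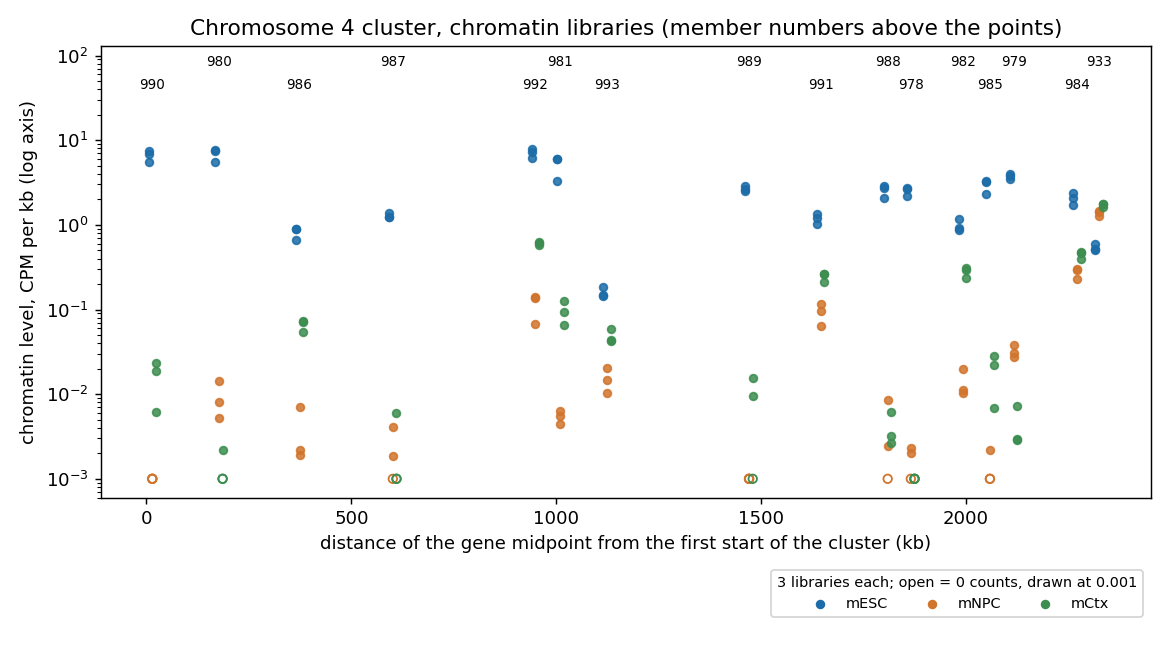
The 16 chromosome 4 members placed by the distance of the gene midpoint from the first start (kb), with CPM per kb in each chromatin library on a log axis and libraries at 0 counts drawn open at 0.001. The mESC points lie above the mNPC and mCtx points for 15 members and below them for Zfp933 at the right end.

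Zfp990, the first of the group along the chromosome, was at 159, 209 and 195 CPM in mESC chromatin. It was at 130, 144 and 159 CPM in mESC nucleoplasm and at 29.1, 58.9 and 52.7 CPM in mESC cytoplasm. All 9 mNPC libraries held 0 counts of it, and mCtx chromatin held 0.540, 0.660 and 0.175 CPM. With 3 counts per library as the floor, its gene-span counts in chromatin were at least 1026-fold higher in mESC than in mNPC. The bounds were 606-fold in nucleoplasm and 263-fold in cytoplasm, for counting error only. The authors' TPM, given further below, had a mean above 0 in mNPC chromatin and a smaller difference there than this bound on counts. Nearly all of its transcript, 98.4% of 100-base stretches, is found in no other gene.

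Zfp980 was at 189, 249 and 260 CPM in mESC chromatin and at 0.178, 0.274 and 0.483 in mNPC chromatin. In mCtx it had 1 count in the 3 chromatin libraries together and 0 in the other 6 libraries. In mCtx nucleoplasm it was at least 523-fold lower than in mESC. Zfp992 kept low levels outside mESC. It was at 156, 166 and 130 CPM in mESC chromatin, 2.91, 2.96 and 1.45 in mNPC, while mCtx held 12.4, 12.9 and 13.3. Its mCtx libraries lay above its mNPC libraries in all fractions (log2 changes of 2.38, 4.01 and 2.06).

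Zfp984, the neighbour of Zfp933, kept higher levels outside mESC. It was at 96.5, 133 and 116 CPM in mESC chromatin, 16.5, 16.9 and 12.9 in mNPC, while mCtx held 22.3, 26.7 and 26.3. The cell types did not overlap, and the log2 changes were -2.90 and -2.20. Of its span, 49.2% overlaps the gene Gm20707. Against mNPC, mCtx chromatin was higher for 11 of the 16 chromosome 4 members and lower for 2 (Zfp979 and Zfp980). Of all genes, 30.2% were higher and 39.2% lower in that comparison. Zfp982 rose by 4.34, from 0.237, 0.219 and 0.414 CPM in mNPC to 4.95, 6.23 and 6.47 CPM in mCtx.

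Fitted changes of members near 0 counts depend on small constants. In mNPC cytoplasm 7 of the 16 were at 0 in all 3 libraries, 4 in nucleoplasm and 2 in chromatin. The median fitted changes of the 16 were -8.37 in chromatin, -9.26 in nucleoplasm and -7.64 in cytoplasm. With members at 0 set at their bounds, these became -7.87, -6.72 and -5.94. In mCtx the fitted medians were -6.54, -6.84 and -6.41, and the last became -4.58.

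Zfp933, at the far end, went the other way in the gene-span counts. It was at 13.1, 12.7 and 15.1 CPM in mESC chromatin, 36.6, 35.9 and 32.4 in mNPC, while mCtx held 41.8, 45.0 and 44.9. In cytoplasm it was at 3.02, 2.85 and 3.09 CPM in mESC, 20.3, 19.1 and 14.7 in mNPC, while mCtx held 25.1, 18.6 and 22.3. In neither fraction did the mESC libraries overlap the others. The changes against mESC in chromatin were 1.36 ± 0.13 (SE) in mNPC and 1.69 ± 0.13 in mCtx (edgeR's quasi-likelihood test, adjusted p = 6.43e-10 and 8.52e-12). On log2(TPM + 1) the mNPC change in chromatin was -0.29 (limma, adjusted p = 0.23), so its direction in mNPC chromatin rested on the measure used. The same held in mNPC nucleoplasm, where the change was 1.27 on counts and -0.56 on log2(TPM + 1), and both passed the threshold. Over all its alternatives the adjusted p for mNPC chromatin ran from 4.07e-21 to 0.293.

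Sequences were compared among the chromosome 4 members, Zfp933 included. Printed first are the coding bases of the first finger found in each of 4 members, from the GENCODE vM21 transcripts, with the codons of the 2 cysteines and 2 histidines in capitals.
Zfp986: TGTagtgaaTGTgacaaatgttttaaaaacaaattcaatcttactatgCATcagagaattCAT
Zfp990: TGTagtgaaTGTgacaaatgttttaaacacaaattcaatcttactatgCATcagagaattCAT
Zfp984: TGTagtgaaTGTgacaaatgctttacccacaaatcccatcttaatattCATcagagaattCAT
Zfp933: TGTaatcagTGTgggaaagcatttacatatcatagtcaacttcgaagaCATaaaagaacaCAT
Zfp987, Zfp988 and Zfp989 had the same 63 bases as Zfp986. Zfp990 matched it at 62 of the 63 positions and Zfp984 at 55. The other members with a finger of this length matched at 47 to 55, and Zfp933 matched at 36. The first finger began at residue 242 in Zfp986 and at 133 in Zfp933. Fingers were not aligned by position, so the matches do not measure how related the genes are.

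Promoter bases before the start site were read from RefSeq (GRCm38.p6) because the members move together. Of the 62 members, 52 had an entry and 42 had one within 100 bases of the counted start, among them 8 of chromosome 4. The 250 bases before the start are given for 3 members that were lower than mESC in both cell types and all fractions, and for Zfp933. Capitals mark 2 stretches of 12 bases, GGGAAGCTAATT and TATTGGGCGGGT, which were picked after the sequences had been seen.
Zfp980: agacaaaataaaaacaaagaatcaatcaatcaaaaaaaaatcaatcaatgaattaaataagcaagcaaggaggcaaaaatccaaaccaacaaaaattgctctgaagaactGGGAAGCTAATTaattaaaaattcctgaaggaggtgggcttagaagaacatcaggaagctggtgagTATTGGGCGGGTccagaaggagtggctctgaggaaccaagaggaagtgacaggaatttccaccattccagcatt
Zfp985: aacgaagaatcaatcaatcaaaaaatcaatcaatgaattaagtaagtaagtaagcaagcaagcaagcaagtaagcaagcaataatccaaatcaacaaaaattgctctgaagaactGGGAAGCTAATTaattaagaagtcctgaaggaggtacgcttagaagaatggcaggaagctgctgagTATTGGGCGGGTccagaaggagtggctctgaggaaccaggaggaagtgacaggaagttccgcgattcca
Zfp984: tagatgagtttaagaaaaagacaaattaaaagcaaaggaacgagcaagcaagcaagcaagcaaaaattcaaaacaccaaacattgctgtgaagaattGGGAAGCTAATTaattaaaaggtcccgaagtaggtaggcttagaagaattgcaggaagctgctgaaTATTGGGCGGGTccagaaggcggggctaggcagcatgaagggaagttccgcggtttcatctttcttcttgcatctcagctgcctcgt
Zfp933: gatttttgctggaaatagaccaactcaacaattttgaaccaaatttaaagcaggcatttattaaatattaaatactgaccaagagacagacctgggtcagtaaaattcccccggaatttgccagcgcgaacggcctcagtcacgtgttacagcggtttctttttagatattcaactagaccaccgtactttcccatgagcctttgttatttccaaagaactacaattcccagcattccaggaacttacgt
They lie at chr4:145670447-145670696 (plus strand), chr4:147553027-147553276 (plus strand), chr4:147809789-147810038 (minus strand) and chr4:147848419-147848668 (minus strand). The 2 stretches do not overlap each other, and each was searched on both strands. GGGAAGCTAATT stood in 7 of the 8 chromosome 4 promoters, all but that of Zfp933, and in 0 of the 34 other members' promoters. Of all 32851 RefSeq promoters, 13 held it (0.0396%), and 12 of these lie in the chromosome 4 interval or within 100 kb of it. The thirteenth was that of Gm31013 on chromosome 9. TATTGGGCGGGT stood in 6 of the 8 and in 1 of the 34 others. Over all promoters 12 held it (0.0365%). In the 10 promoters with both, 54 or 55 bases lay between them. The printed promoters held 1 CG pair for Zfp980, 5 for Zfp985, 7 for Zfp984 and 8 for Zfp933, and the median over all promoters was 6. A match is a description of letters and not a binding site.

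Other protein-coding genes in the chromosome 4 interval were 6, all tested, and 5 of them were lower than mESC in both cell types and all fractions. Of these, 2 were on a list of known zinc finger genes. Zfp600 was at 155 ± 21.8 CPM in mESC chromatin, 0.259 ± 0.046 in mNPC and 0.137 ± 0.043 in mCtx. Rex2 was at 57.5 ± 8.66 CPM in mESC chromatin, 0.107 ± 0.087 in mNPC and 0.059 ± 0.051 in mCtx (SD, n = 3). Within 1 Mb outside the interval, 2 of 4 tested protein-coding genes before it and 4 of 21 after it were lower in all 6 comparisons. Of all genes tested, 20.5% showed this pattern, so the share after the interval was near that of all genes. Zfp978 shares 32.15% of its 100-base stretches with Zfp600 and Zfp980 shares 39.4% with Rex2.

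The 4 members of chromosome 7 were lower than mESC in all 6 comparisons, against 20.5% of all genes. Zfp936 was at 57.0, 61.9 and 61.7 CPM in mESC chromatin and at 6.25, 9.58 and 7.51 CPM in mESC cytoplasm. All 18 mNPC and mCtx libraries held 0 counts of it, so mESC chromatin was at least 329-fold above mNPC and 240-fold above mCtx. The counted span of Zfp936 is 3.31 kb. The other 3 were Zfp975, Zfp976 and Zfp977, and among them Zfp975 changed least. Zfp977 was at 58.6, 48.5 and 49.5 CPM in mESC chromatin, 1.84, 1.86 and 1.66 in mNPC, while mCtx held 4.14, 5.50 and 4.99. Its groups did not overlap, and the changes against mESC were -4.86 and -3.41. Those of Zfp975 were -0.87 and -0.75.

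On chromosome 17 the direction differed between fractions. In mNPC chromatin 6 of the 10 were higher and 3 lower than in mESC (33.8% and 42.7% of all genes). In mCtx chromatin 2 were higher and 5 lower (33% and 47.4%), and the share lower was near that of all genes. In nucleoplasm 1 was higher and 6 lower in mNPC (35.7% and 41.5% of all genes), with a median of -0.49. In mCtx nucleoplasm 8 were higher and 2 lower (38.8% and 43.4%), with a median of 0.79. In cytoplasm 6 were higher and 1 lower in mNPC (36.5% and 39.4% of all genes), and 7 were higher and 0 lower in mCtx (40.1% and 41.6%). Zfp943 was at 2.96, 2.32 and 2.73 CPM in mESC cytoplasm, 14.3, 13.8 and 10.9 in mNPC, while mCtx held 15.3, 12.3 and 15.8. Only mNPC and mCtx overlapped, and the changes against mESC were 2.28 ± 0.19 and 2.43 ± 0.19. Against mESC the changes on chromosome 17 ran from -1.88 (Zfp947) to 1.07 (Zfp983) in mNPC chromatin and from -1.62 (Zfp945) to 1.06 (Zfp948) in mCtx chromatin. In mCtx cytoplasm the count of 0 lower was 0 at an unadjusted p under 0.05 as well (edgeR).

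The 7 tested members of chromosome 2 gave few calls in chromatin. In mNPC 1 was higher and 2 lower (33.8% and 42.7% of all genes), and in mCtx 0 were higher and 3 lower (33% and 47.4%). Zfp972 had the lowest change in both. It was at 33.3, 40.2 and 42.3 CPM in mESC chromatin, 1.19, 1.48 and 0.829 in mNPC, while mCtx held 2.88, 3.30 and 4.99. The cell types did not overlap, with changes of -5.02 and -3.37. It overlaps Gm14327 over 10.98% of its span, and no finger was found in its annotated coding sequence. Zfp966 and Zfp969, also tested, share 64.3% and 100% of their 100-base stretches with Zfp968 and Zfp967. On chromosome 8, Zfp930 was lower in all 6 comparisons. Zfp964 and Zfp963 were higher in mNPC chromatin by 1.18 and 0.61, and for Zfp964 the fits on TPM gave the opposite sign (-0.54).

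Among members in no group, Zfp961 had high levels in every mESC fraction. It was at 130, 155 and 143 CPM in mESC chromatin and at 106, 100 and 97.5 CPM in mESC cytoplasm. In mNPC cytoplasm it was at 12.46, 13.0 and 12.53 CPM and in mCtx cytoplasm at 17.2, 13.6 and 15.7 CPM. The mESC libraries lay above all others, with changes of -3.00 in mNPC and -2.71 in mCtx cytoplasm. Zfp950 rose instead, from 2.42, 3.27 and 2.54 CPM in mESC cytoplasm to 9.46, 9.76 and 8.64 in mNPC and between 16 and 18.2 in mCtx. Its changes were 1.76 ± 0.17 and 2.62 ± 0.16. Of its span, 47.2% overlaps 3 other genes, Grk5 among them. Zfp952 rose by 1.41 in mNPC chromatin and by 0.53 in mCtx chromatin.

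**Figure D3:**
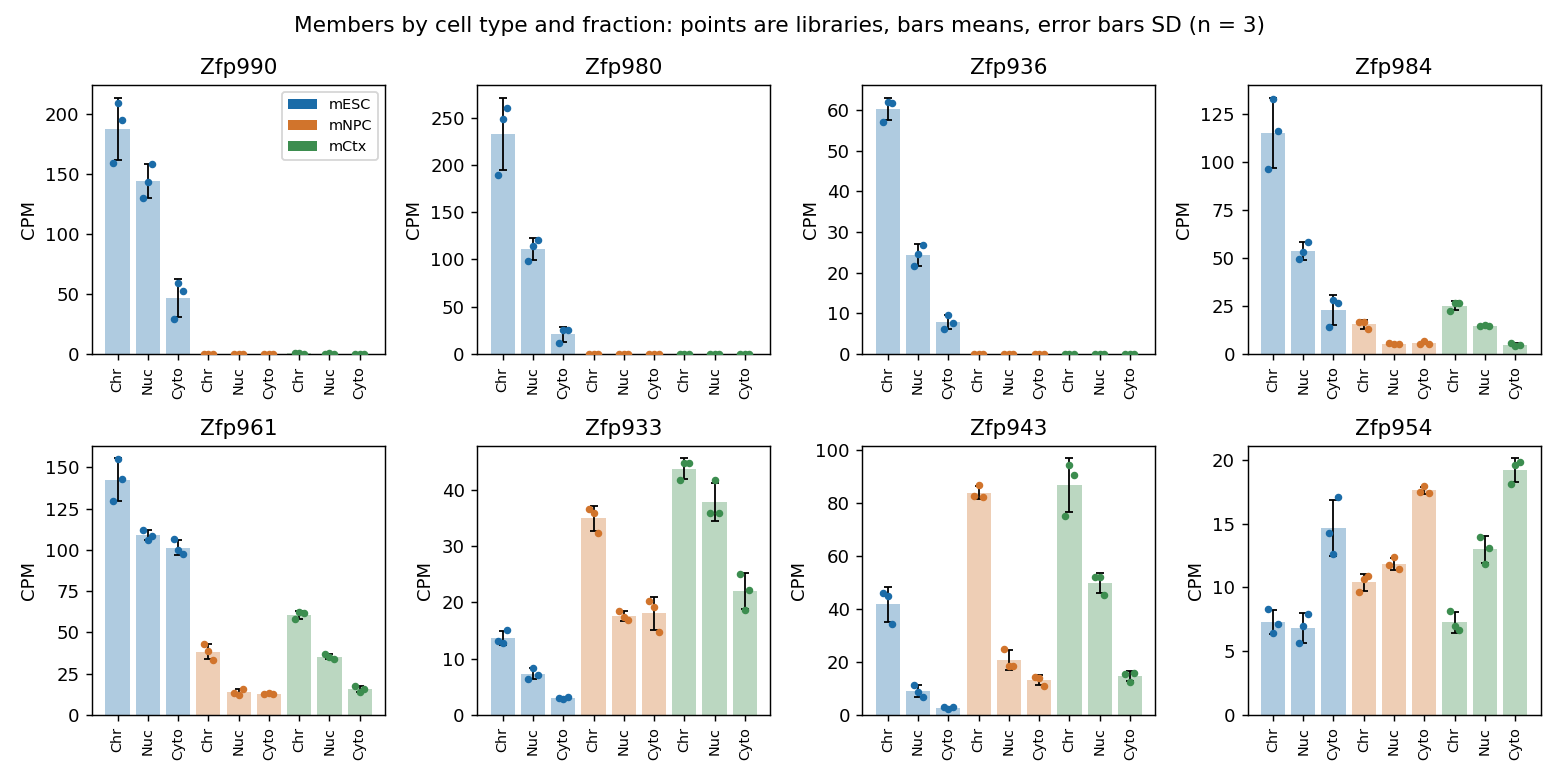
CPM of 8 members in the 9 groups, with points for libraries, bars for means and error bars for SD (n = 3), each panel on its own axis from 0. Zfp990, Zfp980 and Zfp936 are under 1 CPM in every mNPC and mCtx library, Zfp984 and Zfp961 keep lower levels elsewhere, Zfp933 and Zfp943 are higher in mNPC and mCtx, and Zfp954 is highest in cytoplasm.

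The comparison of mCtx with mNPC asks how members differ between the progenitor line and the neuron culture. In chromatin 18 members were higher and 20 lower in mCtx (30.2% and 39.2% of all genes), with a median of -0.09. Median-ratio size factors gave 22 and 12 instead, and total-count scaling gave 12 and 33, so no direction can be read there. In nucleoplasm 37 were higher and 2 lower (36.9% and 34.9%), with a median of 1.15 for the members and 0 for all genes. In cytoplasm 13 were higher and 6 lower (32.6% and 33.4%), with a median of 0.24. Zfp948 was at 7.83, 9.57 and 11.97 CPM in mNPC nucleoplasm and at 54.4, 57.0 and 54.9 CPM in mCtx nucleoplasm. Those libraries did not overlap, and the change was 2.49. Zfp945 fell by 2.18 in mCtx chromatin. Zfp959 and Zfp970 fell there by 1.65 and 1.39, and Zfp986 and Zfp981 rose by 4.01 and 4.07. On log2(TPM + 1) Zfp970 was higher in mCtx chromatin instead, by 0.81, and passed the threshold, so its direction rested on the measure used. In cytoplasm Zfp956 rose by 1.59, and Zfp931 and Zfp958 fell by 1.40 and 0.91. The 2 members lower in nucleoplasm were Zfp979 (-3.04) and Zfp958 (-0.43), and the second lost its call without mNPC nucleoplasm replicate 3 or mCtx nucleoplasm replicate 1. On log2(TPM + 1) the value of Zfp958 there was 1.005, the opposite sign. On log2(TPM + 1), 49 members were higher and 1 lower in mCtx chromatin.

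Chromatin against cytoplasm asks where the RNA of these genes is held. CPM are relative to the scaled library of each fraction and do not give amounts per cell. In mESC 52 of 58 members were higher in chromatin and 2 lower, against 44.6% and 32.9% of all genes. The members' median difference was 2.64 on the log2 scale and that of all genes 0.36. In mNPC 47 were higher and 2 lower (37% and 32.5%), with medians of 2.04 and 0.06. In mCtx 41 were higher and 6 lower (35.6% and 37.6%), with medians of 1.94 and 0. For 289 other tested Zfp genes with a number in the name, the medians were 0.36, 0.40 and -0.03. For 9263 protein-coding genes spanning 10 to 100 kb they were 0.18, 0.03 and -0.04.

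Higher in chromatin than cytoplasm in all 3 cell types were 36 of the 58, against 22.9% of all genes, and 33 to 42 over the alternatives. On log2(TPM + 1) the members' medians were 1.91, 0.79 and 1.85, against 0.48, 0.20 and 0.94 for all genes. Members with more than 90% of their stretches to themselves (31 tested) were higher in chromatin in 26, 25 and 20 cases. Their medians were 2.06, 1.61 and 1.31, below those of the 58. Members that overlap no other gene (44 tested) had medians of 2.64, 2.10 and 1.92.

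**Figure D4:**
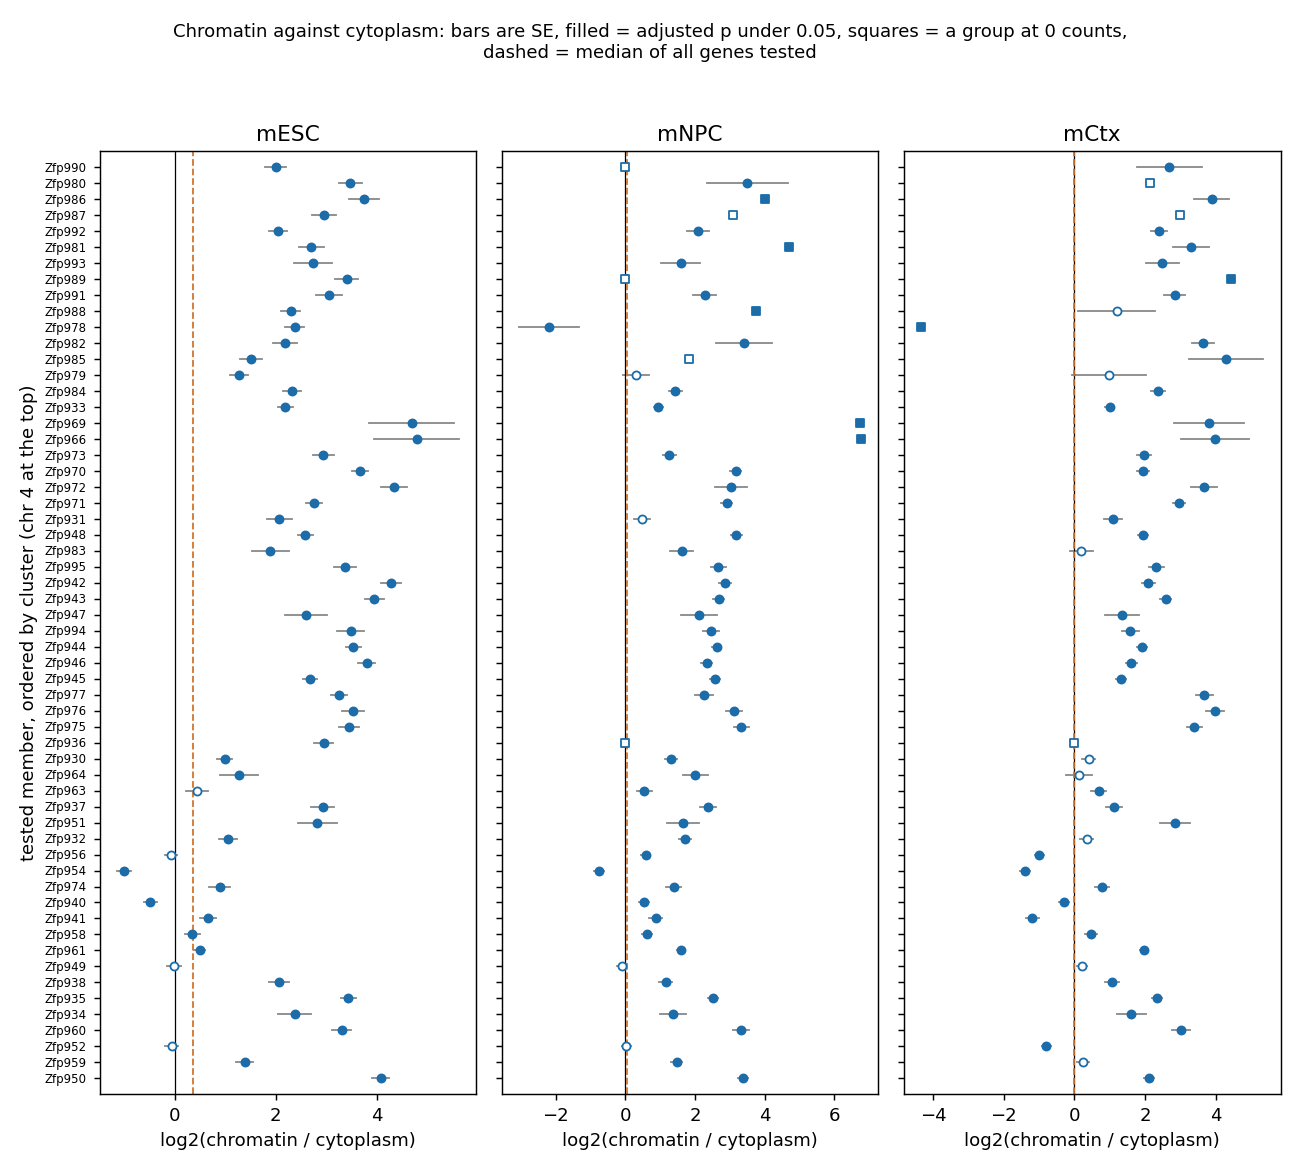
Log2 of chromatin over cytoplasm for the 58 tested members (rows, ordered by chromosome group) in each cell type, with bars for SE, filled points for adjusted p under 0.05, squares where a group was at 0 counts and a dashed line at the median of all genes tested. Filled points to the right of 0 number 52 in mESC, 47 in mNPC and 41 in mCtx.

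Zfp942 of chromosome 17 was at 85.4, 76.0 and 69.4 CPM in mESC chromatin and at 3.18, 3.98 and 4.72 CPM in mESC cytoplasm. The fractions did not overlap, and the difference was 4.28 ± 0.20 (edgeR's quasi-likelihood test, adjusted p = 2.83e-16). The mCtx libraries held 38.7, 50.7 and 53.6 CPM in chromatin against 12.4, 9.49 and 11.6 CPM in cytoplasm, a difference of 2.09. Zfp972 had the largest difference among the members named by rule in mESC, 4.35 ± 0.26. Zfp950 differed by 4.08 in mESC, 3.37 in mNPC and 2.12 in mCtx. Among those named in mNPC and mCtx, Zfp975 and Zfp960 both differed by 3.33 in mNPC, and Zfp976, Zfp986 and Zfp977 by 3.97, 3.89 and 3.68 in mCtx.

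By position, all 10 chromosome 17 members were higher in chromatin in mESC and mNPC and 9 in mCtx. Of all genes, 44.6%, 37% and 35.6% were higher in chromatin in mESC, mNPC and mCtx, and 32.9%, 32.5% and 37.6% lower. On chromosome 2 all 7 tested were higher in mESC, 6 in mNPC and 7 in mCtx. All 16 chromosome 4 members were higher in chromatin in mESC, where they were well covered, with a median of 2.35 and a range that ran down to 1.26 in Zfp979. In mNPC 10 of the 16 were higher and 1 lower, and in mCtx 11 were higher and 1 lower. On chromosome 7 the counts were 4, 3 and 3 of 4, and Zfp936 could be compared in mESC alone. On chromosome 8 they were 2, 3 and 1 of 3. Of the 18 tested members in no group, 13, 15 and 10 were higher and 2, 1 and 5 lower.

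Members with a longer counted span tended to larger differences. For the 9 members with a counted span under 10 kb the medians, in the order mESC, mNPC and mCtx, were 1.27, 1.31 and 0.24. Of these 9, 6 were counted over less than 50% of their GENCODE span, so they are not all short genes, and the other 3 had medians of 0.44, 0.55 and 0.24. For the 16 of at least 30 kb they were 3.25, 2.51 and 2.43. Over the 58 members, span and difference gave Spearman correlations of 0.38, 0.31 and 0.42 and, with the log10 of the span, Pearson correlations of 0.37, 0.23 and 0.35, a description over genes that share libraries. Over the 50 members counted over at least 50% of their GENCODE span, a choice made after seeing the data, the values were 0.36, 0.23 and 0.32 (Spearman) and 0.39, 0.13 and 0.29 (Pearson). The percentage of 100-base stretches that a member had to itself also went with the difference. Over the 58 members its Spearman correlations were -0.37, -0.29 and -0.39, in the same order. Counts include introns, and how much of each difference lay in introns was not tested.

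Zfp954 was the 1 member lower in chromatin than cytoplasm in all 3 cell types, against 21.7% of all genes. It was at 8.30, 6.42 and 7.15 CPM in mESC chromatin and at 14.3, 12.7 and 17.1 CPM in mESC cytoplasm. The mCtx libraries held 8.18, 6.97 and 6.65 CPM in chromatin against 18.1, 19.6 and 19.9 CPM in cytoplasm. The fractions did not overlap, and the differences were -1.01, -0.76 and -1.40 in mESC, mNPC and mCtx. On log2(TPM + 1) they were 0.70, 0.39 and 1.49, the opposite sign in each. Its span, 6.76 kb, is among the shortest.

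Other members below 0 were few. Zfp940 was lower in chromatin in mESC (-0.49) and mCtx (-0.30) and higher in mNPC (0.53). Zfp941, Zfp952 and Zfp956 were lower in mCtx, at -1.19, -0.79 and -0.99. Zfp978 was lower in mNPC and mCtx, where its chromatin counts were 2 and 0 over the 3 libraries. Zfp949 did not pass in any cell type, with -0.01, -0.11 and 0.22. For Zfp940 in mESC, and for Zfp941 and Zfp956 in mCtx, the fits on TPM gave positive values.

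Against nucleoplasm, chromatin was higher for 41 members and lower for 1 in mESC (36.3% and 30% of all genes). In mNPC 45 were higher and 0 lower (33.5% and 32.5%), and in mCtx 18 were higher and 6 lower (26.5% and 30.6%). The members' medians were 0.98, 1.46 and 0.32. Median-ratio size factors gave 26 higher and 3 lower in mCtx, and total-count scaling gave 12 and 9. The 1 member lower in mESC was Zfp979 (-0.46), whose sign turned with total-count scaling (0.10), and in mESC 2 were lower with the replicate block or without the libraries numbered 1. The count of 0 lower in mNPC (edgeR) was 0 at an unadjusted p under 0.05 as well, and 1 in limma on log2(TPM + 1). Higher in chromatin than nucleoplasm in all 3 cell types were 15 members, against 17% of all genes. Among members with at least 1 CPM, Zfp972 had the largest difference in each, 2.66, 2.86 and 2.00. In mCtx, Zfp941 (-1.26), Zfp954 (-0.84) and Zfp952 (-0.71) were the furthest below 0. The count of 15 was 23 with median-ratio size factors and 36 on log2(TPM + 1).

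The ratio of chromatin to cytoplasm was compared between cell types by the interaction term of the same fit. In mNPC against mESC it was higher for 5 members and lower for 14 (16.7% and 23.5% of all genes), with medians of -0.20 for members and -0.22 for all genes. In mCtx against mESC it was higher for 3 and lower for 24 (17.7% and 32.5%), with medians of -0.72 and -0.42. In mCtx against mNPC it was higher for 3 and lower for 19 (12.2% and 21.8%), with medians of -0.24 and -0.20. These comparisons share libraries with each other. They depended on the scaling: median-ratio size factors gave 6 higher and 13 lower in the last, and total-count scaling 0 and 28. Limma on log2(TPM + 1), in which the values, the filter and the test differ together, gave 45 and 0.

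On chromosome 17, 9 of 10 members had a lower ratio in mCtx than in mESC and 0 a higher one (32.5% and 17.7% of all genes). Zfp946 led with -2.19 ± 0.22 (adjusted p = 1.01e-08), beside Zfp942 with -2.19 ± 0.26. Zfp946 was at 47.1, 53.5 and 47.7 CPM in mESC chromatin and at 3.29, 4.16 and 3.15 CPM in mESC cytoplasm. The mCtx libraries held 27.3, 32.1 and 37.9 CPM in chromatin against 10.6, 10.4 and 10.8 CPM in cytoplasm. Its mCtx libraries were lower in chromatin and higher in cytoplasm, with no overlap. Zfp961 went the other way, with a ratio higher by 1.10 ± 0.15 in mNPC and 1.48 ± 0.15 in mCtx. On log2(TPM + 1) the mNPC value of Zfp961 was -0.02.

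The partners through which KRAB zinc finger proteins act were listed as 19 genes. Against mESC, 4 were higher and 13 lower in mNPC chromatin and 3 and 15 in mNPC cytoplasm, where 33.8% and 42.7%, and 36.5% and 39.4%, of all genes were. In mCtx 3 were higher and 12 lower in chromatin and 3 and 15 in cytoplasm (33% and 47.4%, and 40.1% and 41.6%, of all genes). Trim28 was at 2019 ± 403 CPM in mESC cytoplasm, 308 ± 42.0 in mNPC and 160 ± 12.3 in mCtx (SD, n = 3). Dnmt3l, a cofactor of DNA methylation in germ and stem cells, was at 211 ± 32.3 CPM in mESC cytoplasm and at 0 in all mNPC and mCtx libraries. Setdb1 was at 141 ± 21.4, 55.4 ± 9.14 and 46.9 ± 2.27 CPM. Chd3, a remodeler of the NuRD complex, was higher in mCtx cytoplasm by 4.37. In mESC, 14 of the 19 were lower in chromatin than cytoplasm and 5 higher, against 32.9% and 44.6% of all genes.

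In the authors' TPM the near copies of chromosome 4 did not always follow the counts. Zfp987 averaged 387 TPM in mESC chromatin and 13.0 TPM in mCtx chromatin, where the count table held 2 counts of it in 3 libraries. Of its 100-base stretches 22.1% are found in no other gene. Zfp968, not tested for want of counts, averaged 13.0 TPM in mESC chromatin. For Zfp990, with few shared stretches, TPM averaged 53.5 in mESC chromatin and 1.41 in mNPC chromatin, where the counts were 0.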

How the data were processed

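RNA of 3 cell fractions from each of 3 cell types was sequenced as stranded 100-base pairs after depletion of ribosomal RNA, per the labels' protocols. The submitters' processing notes name STAR, featureCounts, kallisto and mm10, with no versions. The authors deposited raw counts per gene for 37332 genes and TPM for 53379 genes. For the re-analysis the deposited chromatin columns were entered with the unit expected counts, which is not a label of the authors. They hold whole numbers, and were used unchanged. The length column of the counts is the distance from gene start to gene end throughout, which takes in introns.

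Gene IDs were matched to GENCODE vM21 for 35533 genes. Libraries were scaled by TMM and fitted with edgeR 4.0.16 in R 4.3.3 (quasi-likelihood test, 9 groups, 27 libraries, 18 residual degrees of freedom, 18249 genes after filterByExpr, Benjamini-Hochberg adjustment over all of them). Printed CPM are counts scaled to the TMM effective library size (library total times TMM factor). The alternatives were median-ratio size factors, total-count scaling, DESeq2 1.42.0, no filter, limma 3.58.1 on log2(TPM + 1) with a mean TPM of at least 0.1, the same with 0.1 added or with no filter, a replicate block, each library left out, the mESC libraries numbered 1 left out, and members that overlap another gene left out. Figures were drawn with matplotlib 3.10.9 in Python 3.11.15.

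The members and lists were chosen with earlier results of these data known. Members named are the 6 highest per kb, the 3 largest changes per direction and comparison with at least 1 CPM in a group, the extremes of each chromosome group, and those against the majority direction. Others named were chosen after their values were seen.

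Replicates are biological per the labels. Whether equal numbers pair libraries was checked by correlating deviations from group means. In mESC, fractions with the same number correlated at 0.28 to 0.66, so numbers pair them by the data. In mNPC and mCtx the lowest correlations were -0.01 and -0.05, and across cell types none paired. Tested on simulated data with 50 genes changed at each size, the comparison of mNPC with mESC chromatin recovered 8 at 1.5-fold, 31 at 2-fold, 46 at 4-fold and 48 at 8-fold, with 9 false calls among 16953 genes. Chromatin against cytoplasm in mESC recovered 9, 35, 42 and 48 in that order, with 11 false calls. The chromatin-to-cytoplasm ratio in mNPC against mESC recovered fewer at each size, 4, 26, 38 and 47, with 5 false calls. Bounds use 3 counts per library as the floor and cover counting error only, as do intervals.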

Additional observations from a re-analysis of the deposited data

Results flagged for a closer look

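The ratio of chromatin to cytoplasm differed between cell types by the interaction term (edgeR's quasi-likelihood test with Benjamini-Hochberg adjustment) for the members below, given as log2 differences. Adjusted p over the alternatives is given as a range where it passed 0.05, whatever the sign of the value in each alternative.

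In mNPC against mESC the ratio was higher for Zfp961 (1.10, adjusted p = 2.1e-06, up to 1 on TPM) and Zfp940 (1.025, adjusted p = 6.9e-05, up to 0.848). Zfp932 was higher by 0.66 (adjusted p = 0.0442, range 0.00778 to 0.981), and it lost its call in 14 of the fits that leave out 1 library. The ratio was lower for Zfp978 (-4.57), Zfp973 (-1.68) and Zfp931 (-1.59), with adjusted p of 0.000162, 2.47e-05 and 0.000406. Zfp978 had 2 counts over the 3 mNPC chromatin libraries.

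In mCtx against mESC the ratio was higher for Zfp985 (2.80, adjusted p = 0.0483, range 0.00019 to 0.441), Zfp961 (1.48) and Zfp982 (1.46, adjusted p = 0.00334, up to 0.35). Zfp985 lost its call in 15 of the fits that leave out 1 library and averaged 0.0199 CPM in mCtx cytoplasm. The fits on TPM gave Zfp985 the opposite sign (-1.57 with 1 added and -0.56 with 0.1 added). The ratio was lower for Zfp978 (-6.715), which was at 0 in mCtx chromatin, Zfp946 (-2.19) and Zfp942 (-2.19).

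In mCtx against mNPC the ratio was higher for Zfp977 (1.43, adjusted p = 0.0204, up to 0.264), Zfp984 (0.94, adjusted p = 0.0102, up to 0.59) and Zfp973 (0.71, adjusted p = 0.0471, up to 0.979). Zfp973 lost its call in 17 of the fits that leave out 1 library. The ratio was lower for Zfp941 (-2.055), Zfp964 (-1.88) and Zfp956 (-1.58), and on TPM the highest adjusted p was 1 for the first and last. For Zfp964 the fits on TPM passed the threshold in the opposite direction (1.39 with 1 added and 1.31 with 0.1 added). Its direction thus rested on the measure used.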

How the results depend on the processing

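Most values kept their direction and side of the threshold: 3373 single-member values did, 93 lost the call and 62 changed sign. Of the counts, 1389 stayed within 1.5 times and 123 did not, and those follow as counts of members (value above in brackets). The causes of these changes were not tested. Limits: counts include introns and reads of overlapping genes, the handling of reads shared by near copies is not given, and CPM are relative to the scaled library of each fraction. Members at or near 0 have bounds and no firm size. mNPC is 1 line. With median-ratio size factors, the members called higher numbered 5 (from 3) for the ratio of mCtx versus mESC and 6 (from 3) for the ratio of mCtx versus mNPC. Those called lower numbered, with median-ratio size factors, 12 (from 20) in mCtx versus mNPC in chromatin and 3 (from 6) in chromatin versus nucleoplasm in mCtx. With median-ratio size factors, the members higher in chromatin than nucleoplasm in all 3 cell types numbered 23 (from 15). With total-count scaling, the members called higher numbered 10 (from 17) in mNPC versus mESC in chromatin, 1 (from 8) in mCtx versus mESC in chromatin and 2 (from 5) for the ratio of mNPC versus mESC. Under the same setting, the members called higher numbered 1 (from 3) for the ratio of mCtx versus mESC and 0 (from 3) for the ratio of mCtx versus mNPC. Members called lower numbered, with total-count scaling, 33 (from 20) in mCtx versus mNPC in chromatin, 1 (from 2) in chromatin versus cytoplasm in mESC and 0 (from 1) in chromatin versus nucleoplasm in mESC. Under the same setting, the members called lower numbered 40 (from 24) for the ratio of mCtx versus mESC. With total-count scaling, the members higher than mESC in mNPC and mCtx in all 3 fractions numbered 1 (from 4). With DESeq2, the members called higher numbered 5 (from 3) for the ratio of mCtx versus mESC and 6 (from 3) for the ratio of mCtx versus mNPC. Those called lower numbered, with DESeq2, 12 (from 20) in mCtx versus mNPC in chromatin, 1 (from 2) in chromatin versus cytoplasm in mNPC and 0 (from 1) in chromatin versus nucleoplasm in mESC. With DESeq2, the members higher in chromatin than nucleoplasm in all 3 cell types numbered 23 (from 15). With no low-count filter, the members called higher numbered 3 (from 5) for the ratio of mNPC versus mESC. Members called lower numbered, with no low-count filter, 1 (from 2) in mCtx versus mNPC in nucleoplasm and 3 (from 6) in chromatin versus nucleoplasm in mCtx. With the replicate number as a block, the members called higher numbered 5 (from 3) for the ratio of mCtx versus mNPC. Those called lower numbered, with the replicate number as a block, 2 (from 1) in chromatin versus nucleoplasm in mESC. Without the mESC libraries numbered 1, the members called higher numbered 8 (from 5) in mNPC versus mESC in nucleoplasm. Members called lower numbered, without the mESC libraries numbered 1, 2 (from 1) in chromatin versus nucleoplasm in mESC. With the 14 members that overlap another gene left out, the members called higher numbered 3 (from 5) in mNPC versus mESC in nucleoplasm, 4 (from 8) in mCtx versus mESC in chromatin and 8 (from 13) in mCtx versus mNPC in cytoplasm. Under the same setting, the members called higher numbered 11 (from 18) in chromatin versus nucleoplasm in mCtx, 3 (from 5) for the ratio of mNPC versus mESC and 1 (from 3) for the ratio of mCtx versus mNPC. Those called lower numbered, with the 14 members that overlap another gene left out, 1 (from 2) in mCtx versus mNPC in nucleoplasm, 1 (from 2) in chromatin versus cytoplasm in mNPC and 0 (from 1) in chromatin versus nucleoplasm in mESC. Under the same setting, the members called lower numbered 8 (from 14) for the ratio of mNPC versus mESC. The replicate block moved the 2 counts given for it and no other count by over 1.5 times.

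In the fits on TPM, values with 1 and with 0.1 added are given in that order, and with 1 added and no filter last where 3 are given. Members called higher in the TPM fits numbered 0 in mNPC versus mESC in chromatin (from 17) and 1, 1 and 0 in mNPC versus mESC in nucleoplasm (from 5). They numbered 4 in mNPC versus mESC in cytoplasm (from 18) and 14, 12 and 13 in mCtx versus mESC in chromatin (from 8). Counts were 8 in mCtx versus mESC in cytoplasm (from 19) and 49, 50 and 49 in mCtx versus mNPC in chromatin (from 18). They numbered 7, 10 and 6 in mCtx versus mNPC in cytoplasm (from 13) and 43 in chromatin versus nucleoplasm in mCtx (from 18). Counts were 0 for the ratio of mNPC versus mESC (from 5) and 14, 14 and 13 for the ratio of mCtx versus mESC (from 3). They numbered 45, 36 and 45 for the ratio of mCtx versus mNPC (from 3). Members called lower in the TPM fits numbered 49, 47 and 49 in mNPC versus mESC in chromatin (from 32) and 1 in mCtx versus mNPC in chromatin (from 20). They numbered 1 in mCtx versus mNPC in nucleoplasm (from 2) and 4, 6 and 3 in mCtx versus mNPC in cytoplasm (from 6). Counts were 1 in chromatin versus cytoplasm in mESC (from 2) and 1 in chromatin versus cytoplasm in mNPC (from 2). They numbered 0 in chromatin versus cytoplasm in mCtx (from 6) and 0 in chromatin versus nucleoplasm in mESC (from 1). Counts were 1, 1 and 0 in chromatin versus nucleoplasm in mNPC (from 0) and 0 in chromatin versus nucleoplasm in mCtx (from 6). They numbered 42, 27 and 42 for the ratio of mNPC versus mESC (from 14) and 19, 5 and 19 for the ratio of mCtx versus mESC (from 24). Counts were 0 for the ratio of mCtx versus mNPC (from 19). Members higher than mESC in mNPC and mCtx in all 3 fractions numbered 0 in the TPM fits (from 4). Members lower in chromatin than cytoplasm in all 3 cell types numbered 0 in the TPM fits (from 1). Members higher in chromatin than nucleoplasm in all 3 cell types numbered 36, 36 and 35 in the TPM fits (from 15).

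With 1 library left out, the count called higher in mNPC versus mESC in nucleoplasm (5) ran from 5 to 8, moved by mESC nucleoplasm replicate 1. Over the fits without 1 library, the count called lower in mCtx versus mNPC in nucleoplasm (2) ran from 1 to 3, moved by mCtx nucleoplasm replicate 1. Leaving out 1 library, the count called lower in chromatin versus cytoplasm in mNPC (2) ran from 1 to 2, moved by mNPC chromatin replicate 2 and mNPC cytoplasm replicate 2. With 1 library left out, the count called lower in chromatin versus nucleoplasm in mESC (1) ran from 0 to 2, moved by mESC nucleoplasm replicate 1, mESC cytoplasm replicate 1, mESC chromatin replicate 3 and mESC nucleoplasm replicate 3. Over the fits without 1 library, the count called higher for the ratio of mNPC versus mESC (5) ran from 3 to 5, moved by mESC cytoplasm replicate 2, mNPC cytoplasm replicate 1 and mNPC cytoplasm replicate 3. Leaving out 1 library, the count called higher for the ratio of mCtx versus mNPC (3) ran from 1 to 4, moved by mNPC cytoplasm replicate 2.

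In the fits on TPM, the sign of these members changed, with 1 and with 0.1 added. Zfp952 went to -0.14 and -0.18 in mNPC versus mESC in chromatin (from 1.41) and to -0.30 and -0.49 in mNPC versus mESC in nucleoplasm (from 0.86). Zfp933 went to -0.29 and -0.37 in mNPC versus mESC in chromatin (from 1.36) and to -0.56 and -1.01 in mNPC versus mESC in nucleoplasm (from 1.27). Zfp964 went to -0.54 and -0.71 in mNPC versus mESC in chromatin (from 1.18) and to 1.39 and 1.31 in the ratio of mCtx versus mNPC (from -1.88). Zfp943 went to -0.37 and -0.60 in mNPC versus mESC in nucleoplasm (from 1.20). Zfp970 went to 0.81 and 0.85 in mCtx versus mNPC in chromatin (from -1.39). Zfp958 went to 1.00 and 1.48 in mCtx versus mNPC in nucleoplasm (from -0.43). Zfp954 went to 0.70 and 0.82 in chromatin versus cytoplasm in mESC (from -1.01) and to 0.39 and 0.51 in chromatin versus cytoplasm in mNPC (from -0.76). Zfp954 also went to 1.49 and 1.72 in chromatin versus cytoplasm in mCtx (from -1.40) and to 0.69 and 0.77 in chromatin versus nucleoplasm in mCtx (from -0.84). Zfp940 went to 1.10 and 1.20 in chromatin versus cytoplasm in mESC (from -0.49) and to -0.14 in the ratio of mNPC versus mESC (from 1.02). Zfp941 went to 0.59 and 1.02 in chromatin versus cytoplasm in mCtx (from -1.19). Zfp956 went to 0.48 and 0.58 in chromatin versus cytoplasm in mCtx (from -0.99). Zfp979 went to 1.86 and 1.89 in chromatin versus nucleoplasm in mESC (from -0.46). Zfp961 went to -0.016 in the ratio of mNPC versus mESC (from 1.10). Zfp932 went to -0.061 in the ratio of mNPC versus mESC (from 0.66). Zfp985 went to -1.57 and -0.56 in the ratio of mCtx versus mESC (from 2.80). Zfp979 went from -0.46 to 0.10 in chromatin versus nucleoplasm in mESC with total-count scaling. Zfp973 went from 0.71 to -0.035 for the ratio of mCtx versus mNPC with total-count scaling.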
